A study of Mus musculus with 6 samples.

Results

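Cluster 8 is the group of 173 haematopoietic stem cells (HSCs), of 22378 cells in all (0.773%), that the authors numbered 8 among the 11 clusters of their pooled single-cell RNA libraries. Its members were taken as the authors assigned them, through their gene table and pathway table of cluster 8 against all other cells. The HSCs had been sorted from the bone marrow of mice of the Gfp-Lc3 genotype, in which LC3, a protein of autophagosome membranes, carries a fluorescent tag, and all 6 mice had this genotype. The groups were young and old mice, each either fed ad lib, or after a 24 hour fast, or after such a fast followed by 24 hours of refeeding, with 1 mouse and 1 library per group. The labels give no age in numbers. The authors' tables pool the 6 libraries, and how cluster 8 was split among them was not analysed here, so no value below compares young with old or fed with fasted mice and none carries a between-animal error. Because clusters are defined on the same expression values, every difference between cluster 8 and the rest is a description and no test was made.

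HSCs maintain all blood lineages, spend most of their time outside the cell cycle, and change their expression with age. Histones package DNA: pairs of the core histones H2A, H2B, H3 and H4 form the nucleosome, and a linker histone of the H1 family binds where DNA enters and leaves it. Most core histone genes and several H1 genes are replication-dependent, meaning that their messages lack a poly(A) tail and peak in S phase, while the variant genes and H1f0 make polyadenylated messages outside S phase. H1f0 is best known for accumulating in cells that have stopped dividing or are differentiating.

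All folds, levels and scores below were read from the authors' deposited tables. Folds are log2 changes of a cluster against all other cells, and levels are means over all cells on a log2 scale of counts per 10000 counts of a cell. A gene is called higher or lower where the deposited fold is at least 0.5 in size and the deposited adjusted p is under 0.05, the latter only as a filter on noise. In cluster 8 this held for 404 of 17055 genes as higher (2.37%). As lower it held for 3333 (19.5%), but 2743 of these had no count in cluster 8, and among the 14094 genes with a count 590 were lower (4.19%). A count of 0 in 173 cells allows a share of up to 1.73% of cells with a counted molecule, counting error only, so undetected genes are counted apart and given no fold, and a gene called lower below is one with a count in cluster 8 unless said otherwise. The 8534 genes at or above the median level had a median fold of 0.11 in cluster 8, which is the zero against which gene lists are best read. With folds taken from that median, 252 genes were higher and 637 of the detected genes lower, so the split shifted toward lower calls. At the edge of the rule, Rbm33 (0.5007) was just inside and Pdcl3 (0.4996) just outside on the higher side, and Bex4 (-0.5019) was just inside and Tinagl1 (-0.4968) just outside on the lower side. The equivalent depth of cluster 8, the count per cell at which random sampling of the mean profile leaves as many genes undetected, was 12349, within the 9579 to 15555 of clusters 0 to 7 and 9.

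The 5 genes that mark cluster 8 were all higher there than in any other cluster's table. Hist1h2bc, a gene for core histone H2B on chromosome 13 (mm10, 23684199 to 23692908), had a deposited fold of 4.06, or 16.7 times the rest, and its next highest value was 0.60 in cluster 9. Hist1h1c, a linker histone gene at 23738808 to 23740367 on the same chromosome, stood at 2.71 (6.53 times), against 0.55 in cluster 2. H1f0, on chromosome 15 (79028450 to 79030504), stood at 2.47 (5.52 times), against 0.81 in cluster 10, which holds 10 cells. These 3 histone genes therefore separated cluster 8 from every other cluster by a wide margin, while the remaining pair did so by less. Ptms, the gene for parathymosin, a small acidic nuclear protein, had a fold of 1.57 and at most 0.66 elsewhere (cluster 10). Vim, the gene for the intermediate filament vimentin, had 1.17, against 0.53 in cluster 0.

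**Figure D1:**
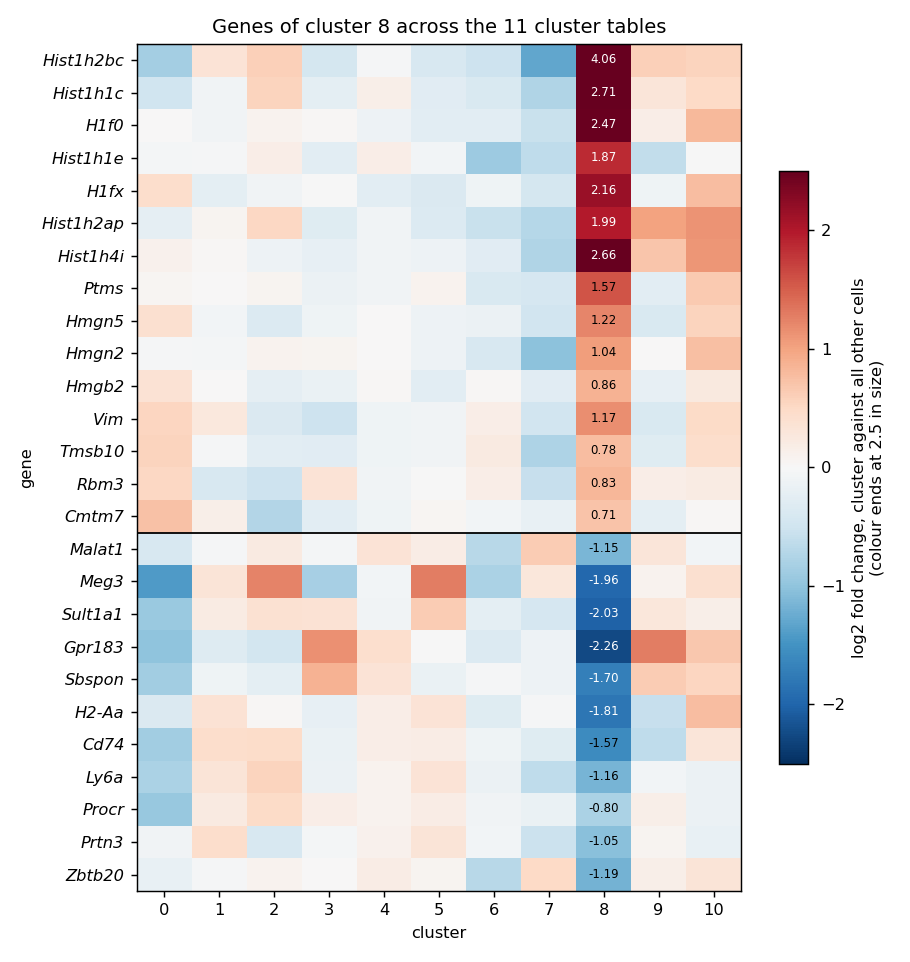
Deposited log2 fold change of 26 genes (rows) in each of the 11 clusters against all other cells (columns; red higher, blue lower), with the value printed for cluster 8. Genes above the black line were higher in cluster 8 and those below it lower; Hist1h2bc at 4.06 and Gpr183 at -2.26 are the extremes shown.

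No marker of long-term HSCs was called higher in cluster 8, and those of other cell types were not called higher either, with 2 exceptions. All 10 markers of long-term HSCs were detected, and their deposited folds ran from -1.16 to 0.32. Of these, 4 were lower: Ly6a, Procr, Mllt3 and Slamf1. All 4 markers of multipotent progenitors were detected too, at -0.76 to 0.47, and none was lower. Among the markers of neutrophils, monocytes or macrophages, B cells, T or NK cells, megakaryocytes, mast cells or basophils, endothelial cells, stromal cells and multipotent progenitors, none was called higher. Some defining genes of those types had no count in cluster 8, among them Csf1r, Ccr2 and Adgre1 of monocytes and macrophages, Cd79a and Ms4a1 of B cells, Cd3d of T cells, Ltf of neutrophils, Ppbp of platelets and Cdh5 of endothelium, all of them sparse over all cells as well. Other markers of the same types were detected without passing the rule, such as C1qa (0.53), C1qb (0.24), Ebf1 (1.56), Nkg7 (0.20), Cpa3 (1.10), Col1a1 (1.61) and Pdgfra (2.69), and their part in the results was not tested. The exceptions were Car2 (0.57, and 0.46 from the 0.11 median, which no longer passes), a carbonic anhydrase gene on the erythroid marker list, of which Car1 was undetected, and Mki67 (2.98) on the list for cycling cells. The treatment of doublets, droplets that hold more than 1 cell, was not given in the sources used here.

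Linker histones were the histone class that was higher throughout: all 7 measured genes passed the size rule in cluster 8, against 2.37% of all genes, with a median deposited fold of 2.35. Hist1h1b stood at 3.55, Hist1h1c at 2.71, H1f0 at 2.47, Hist1h1a at 2.35, H1fx at 2.16, Hist1h1d at 2.09 and Hist1h1e at 1.87. The class thus included both replication-dependent genes (Hist1h1a to Hist1h1e) and the polyadenylated H1f0 and H1fx. Messages of replication-dependent histone genes, linker or core, lack a poly(A) tail, so their counts may cover only part of them. This was not analysed here. In every other cluster the median of these 7 genes lay between -0.76 (cluster 7) and 0.09 (cluster 2). Hist1h1a and Hist1h1b were sparse over all cells, with mean levels of -6.11 and -5.64, while Hist1h1e had a level of -0.84 and no other cluster above 0.17.

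Promoter sequences of Hist1h1c and Hist1h1e are shown because both were among the leading genes of cluster 8. Both promoters hold a CCAAT box and an H1 box at nearly the same places. They are RefSeq sequences of build GRCm38.p6, the 200 bases before the annotated start, 5′ to 3′ on the gene's own strand, with capitals marking the CCAAT box, the H1 box known from linker histone promoters (AAACACA) and the TATA box (TATAAA) on either strand. Hist1h1c lies at chr13:23738607-23738806 on the plus strand and Hist1h1e at chr13:23622559-23622758 on the minus strand.
Hist1h1c: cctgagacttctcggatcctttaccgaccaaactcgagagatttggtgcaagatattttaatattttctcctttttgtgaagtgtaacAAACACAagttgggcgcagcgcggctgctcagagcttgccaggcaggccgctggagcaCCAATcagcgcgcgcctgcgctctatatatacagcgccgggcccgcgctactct
Hist1h1e: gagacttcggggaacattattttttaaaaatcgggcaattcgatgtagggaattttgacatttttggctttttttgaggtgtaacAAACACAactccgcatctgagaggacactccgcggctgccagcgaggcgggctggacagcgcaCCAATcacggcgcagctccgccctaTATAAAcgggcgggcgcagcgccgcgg

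In Hist1h1c and Hist1h1e the AAACACA match began 112 and 115 bases before the start, and the CCAAT match 54 and 52 bases before it. TATAAA was matched in Hist1h1e alone of this pair, 27 bases before the start. Of the 7 linker genes, 5 held CCAAT, 4 held AAACACA and 4 held TATAAA, while 29.3%, 4.8% and 9.96% of all 32851 RefSeq promoter windows of that length did. Of 50 core histone promoters matched, 40 held CCAAT, 2 held AAACACA and 19 held TATAAA. A match is a run of letters and not a measured site, and for Hist1h1d, H1f0 and H1fx the RefSeq start lies away from the GENCODE gene start, so their windows may not cover the start in use. No entry was found for Hist1h2bc.

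Of 57 replication-dependent core histone genes measured, 13 were higher in cluster 8, 33 were detected but did not pass and 11 were undetected, and 44 of the 46 detected had folds above 0. Over all classes, linker histones included, 72 of 78 listed histone genes were measured: 21 were higher, 0 were lower with a count, 40 were detected but did not pass, and 11 were undetected. The median deposited fold of all 72 was 1.18, against 0.03 over all genes. Above 0 were 58 of the 61 detected histone genes, and 8876 of all 14094 detected genes. A sparse gene is detected in a small cluster mostly where its fold there is high. Among all detected genes at mean levels of -7.96 or less the median fold was 1.61, and from -7.96 to -4.48 it was 0.07. For the sparsest histone genes a fold above 0 therefore says little. At or above the median level, the median was 1.45 for 11 replication-dependent core genes and 1.16 for all 22 histone genes. It was 0.11 for all genes of that level. The undetected histone genes all had mean levels of -8.27 or less over all cells and so were sparse in the whole data set. At or above the median level of all genes there were 15 replication-dependent core or linker histone genes, and 13 were higher; the other two were H2afx (0.49) and Hist1h4d (0.23). Near-identical sequences within this family can share or lose reads in counting, so the folds of single core histone genes are uncertain.

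Among H2A genes 5 of 17 were higher: Hist1h2ak (2.87), Hist1h2ap (1.99), Hist1h2ae (1.68), Hist1h2ac (1.45) and Hist3h2a (1.21), with 3 undetected. Among H2B genes 4 of 16 were higher in the authors' deposited table, with 3 undetected: Hist1h2bc, Hist1h2bg (2.82), Hist3h2ba (2.37) and Hist1h2be (1.08). H3 and H4 genes gave 4 of 24, with 5 undetected: Hist1h4j (5.05), Hist1h4i (2.66), Hist1h3d (2.37) and Hist1h4h (1.11). All 4 classes of replication-dependent or linker histones therefore had members past the rule. The median fold over measured members was 1.68 for H2A, 1.29 for H2B and 1.06 for H3 and H4. Hist1h4j, the largest fold among those called, had a mean level of -8.97, the lowest of the 21, and was undetected in 4 other clusters.

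Replication-independent core variants differed little from the rest of the transcriptome by comparison. Of 8 measured, only H2afv passed the rule, at 0.67, and the median was 0.30. H2afz, the gene for H2A.Z, stood at 0.47, H3f3b at 0.41 and H3f3a at 0.23, the latter pair encoding the variant H3.3. The contrast in size between these genes and the linker class is visible in the plot of histone genes by class.

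**Figure D2:**
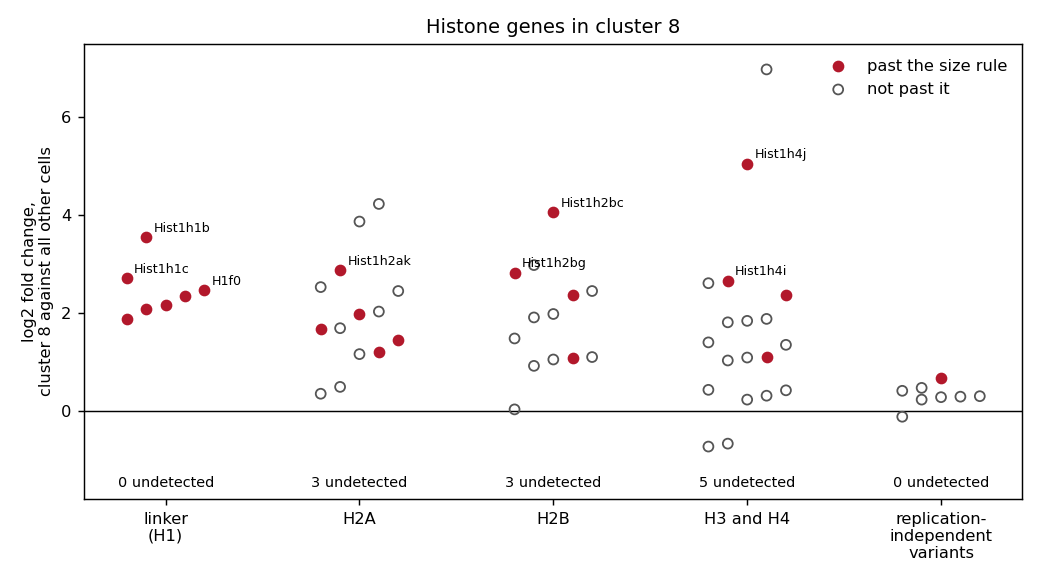
Deposited log2 fold change (vertical axis) of each histone gene detected in cluster 8, by class (horizontal axis); filled red points passed the size rule, open points did not, and the number of undetected members is written below each class. All 7 linker genes lie between 1.87 and 3.55, while the replication-independent variants lie near 0.30; the open point at 6.98 did not pass the filter on adjusted p.

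Across the clusters, the histone pattern stood out in cluster 8 in the tables as they are. Of the 21 higher genes, 19 had their highest deposited fold there among all 11 tables and 21 among clusters 0 to 9; the exceptions, Hist1h2be (1.49) and Hist1h2bg (3.01), were higher in cluster 10. Over the other 10 tables there were 12 cases of a histone gene called higher: 5 in cluster 0 (2.4% of all genes there), 6 in cluster 2 (3.02%) and 1 in cluster 9 (1.2%). In cluster 7, 20 of the 72 measured histone genes were lower with a count, against 1615 of all 17055 genes. Each table's rest contains the other clusters' cells, so these values are not independent. Of the 64 replication-dependent or linker genes measured, 49 lie on chromosome 13 between 21715763 and 23764406, and of those 16 were higher and 10 undetected.

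Several genes for other abundant chromatin proteins were also higher, at smaller folds. In the list of high mobility group and thymosin proteins all 13 measured genes had a deposited fold above 0, with a median of 0.45, and 6 were higher. Besides Ptms these were Hmgn5 (1.22) and Hmgn2 (1.04), which bind the nucleosome core, Hmgb3 (0.88) and Hmgb2 (0.86), which bend DNA, and Tmsb10 (0.78), an actin-binding thymosin. Hmgb1 (0.34) and Ptma (0.06), the gene for prothymosin alpha, did not pass. Cluster 8 had the highest value of all 11 tables for each of the 6.

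The enzymes and carriers that handle histones did not share this pattern. Of 20 measured genes for histone chaperones and histone message processing, 1 was higher: Nasp (0.93), which carries H1 and H3-H4, and the list median of 0.10 was close to that of well-detected genes. Among histone acetylation and Polycomb genes, Hdac7 (0.63), a histone deacetylase, and Tet3 (0.57), which oxidises methylated cytosine, were higher and Cbx7 (-0.53), a Polycomb subunit, was lower, with a median of 0.12; the call of Tet3 was lost from the 0.11 median (0.46). In the authors' deposited pathway table, however, 19 of 25 pathways whose names hold histone, nucleosome, chromatin or senescence scored higher, against 55% of all 2922 pathways, and none was lower. Their median fold was 0.11, against 0.09 for all pathways, so they were not set apart by size. Reactome's processing of replication-dependent histone messages by SLBP, the protein that binds their stem-loop, scored 11.2 with a fold of 0.37, the highest fold of the 11 clusters. Cluster 0, which holds far more cells, had a score of 17.4 and a fold of 0.12. The sets for deacetylation and acetylation of histones scored 7.84 and 7.46, the highest scores of the 11 clusters, with folds of 0.18 and 0.13 that were below those of cluster 10 (0.33 and 0.34). Pathway members were not analysed here, and a pathway can rest on a single gene.

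Vimentin was accompanied by a group of small calcium-binding and membrane-linked genes. Of 17 measured S100 and annexin genes 4 were higher in the authors' deposited table: Anxa2 (0.85) and its partner S100a10 (0.74), S100a4 (0.72) and Lgals1 (0.71), a galectin kept on this list. Ahnak (-0.92), a very large scaffold protein that binds S100a10, was lower. The list median was 0.38. In the lists for intermediate filaments and lamina, and for actin and tubulin, medians changed sign between settings, and no direction is given. In them Lmnb1 (0.63), a nuclear lamin, and Coro1a (0.75), an actin regulator, were higher. The tubulin genes Tubb6 (-2.48), Tubb4b (-0.82) and Tuba1b (-0.66) were lower. Tubb6 was sparse over all cells (mean level of -5.49), so its fold rests on few counts.

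The remaining genes at the top of the authors' order had folds under 1 and, except Cmtm7, their highest value in cluster 8. They were Snrpg (0.68) and Snrpf (0.56), core proteins of the spliceosome's small ribonucleoproteins, Rbm3 (0.83), a cold-induced RNA-binding protein, Txn1 (0.68), thioredoxin, Dynll1 (0.86), a dynein light chain, and Cd47 (0.52), the signal that protects cells from engulfment. With folds taken from the 0.11 median, Cd47 (0.40) and Snrpf (0.45) no longer passed. Cmtm7 stood at 0.71, just under cluster 0 at 0.73. These genes are abundant, with mean levels of 1.01 to 2.33, so their small folds rest on many molecules.

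Most genes of HSC ageing were lower in cluster 8, and nearly all of the rest had folds below 0. Of 35 measured genes known to mark aged HSCs, 21 were lower with a count, against 4.19% of detected genes, 14 did not pass and 0 were higher or undetected. The median deposited fold was -0.75, with a range of -2.26 to 0.11, and 34 of 35 were below 0; Ghr, the growth hormone receptor gene, was the exception at 0.11. For 18 of the 35, cluster 8 had the lowest fold among clusters with a count. The list was drawn up with earlier results of these tables known, so its direction is a description.

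The largest folds of this group were those of 4 genes. Gpr183, an oxysterol receptor gene, stood at -2.26 in cluster 8, at 1.14 in cluster 3 and at 1.27 in cluster 9. Sult1a1, a sulfotransferase, stood at -2.03, and its next lowest value was -0.93 in cluster 0. Sbspon, a secreted matrix protein, stood at -1.70 against 0.86 in cluster 3, and Neo1, the receptor neogenin, at -1.61. The spread between clusters was thus wide, with cluster 3 often at the other end: 8 of the 21 lower genes were called higher there, against 0.704% of all genes in that table. Ramp2, a receptor-modifying protein of vessels, was -1.21 in cluster 8 but slightly lower still in cluster 0 (-1.28), and 1.43 in cluster 3.

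The same direction held for adhesion and platelet-linked genes of the ageing list. Alcam, an adhesion molecule, stood at -1.08, Tm4sf1 at -1.21, Selp, the gene for P-selectin, at -0.92, and Vwf, which encodes von Willebrand factor, at -0.88 in the authors' deposited table. Cd38, an NAD-consuming surface enzyme, stood at -1.26 and Slamf1, the gene for CD150, at -0.67. The metallothionein genes Mt1 (-0.79) and Mt2 (-0.78), which bind zinc and copper, were lower too, though cluster 2 lay below cluster 8 for both (-0.88 and -1.05). The other members called were Plscr2 (-0.98), Nupr1 (-0.92), Ehd3 (-0.92), Trpc1 (-0.77), Clu (-0.75), Cavin2 (-0.58), Jun (-0.56) and Fhl1 (-0.54). By list medians, cluster 8 (-0.75) lay below cluster 6 (-0.39) and cluster 0 (-0.33), and cluster 3 (0.32), cluster 9 (0.41) and cluster 10 (0.43) were at the other end. In cluster 0, 11 members were lower (6.63% of all genes there, undetected ones included).

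**Figure D3:**
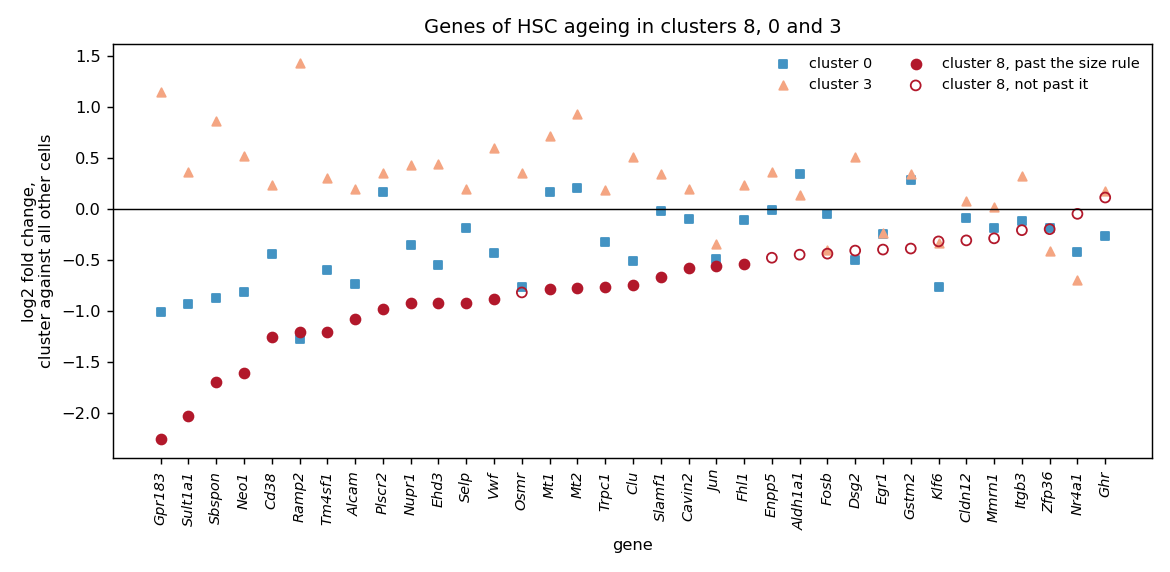
Deposited log2 fold change (vertical axis) of the 35 measured ageing genes (horizontal axis, ordered by cluster 8) in cluster 8 (red circles, filled where past the size rule), cluster 0 (blue squares) and cluster 3 (orange triangles), each against all other cells. The red circles run from -2.26 to 0.11, and 21 of them are filled.

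Outside ageing, the most abundant RNA in the tables was also lower. Malat1, a nuclear-retained long non-coding RNA with a mean level of 7.64, stood at -1.15, or 0.449 times the rest, and its next lowest value was -0.69 in cluster 6. The maternally expressed non-coding RNAs Meg3 and Rian, which come from the same imprinted region, were both at -1.96. Of 8 nuclear long non-coding RNAs measured, 3 were lower with a count, 2 were undetected (Xist and Snhg11, both sparse in all cells) and 3 did not pass: Mirg (-1.33), Neat1 (-0.10) and Kcnq1ot1 (0.31). Levels are shares of each cell's counts, and the part of Malat1 in the 0.11 median of well-detected genes was not tested.

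Stem cell identity genes were mixed. Of 24 measured, 5 were lower and 1 higher in the authors' deposited table. Among them, Ly6a, the gene for Sca-1, stood at -1.16, Procr, the gene for EPCR, at -0.80, Mllt3 at -0.67 and Slamf1 at -0.67, while Esam, an endothelial adhesion molecule also used to mark HSCs, stood at 0.57. The transcription factor genes Hlf (0.17) and Mecom (-0.16) and the receptor gene Kit (0.32) did not pass. Genes for surface proteins were thus among the lower (Ly6a, Procr and Slamf1), the higher (Esam) and those not called (Kit). For Procr and Mllt3, cluster 0 lay lower still, at -0.94 and -0.78. Of 19 quiescence genes, 3 were lower: Meg3, Cdkn2c (-0.64), a cell cycle inhibitor gene, and Junb (-0.62).

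Cell cycle genes were split between 5 mitotic genes with large folds and a majority that did not pass. In the G2M list 5 of 23 measured genes were higher: Ccnb2 (4.62), a mitotic cyclin, Cenpe (4.60) and Cenpf (3.65), proteins of the kinetochore, Mki67 (2.98), the proliferation marker Ki-67, and Ube2c (2.54), of the mitotic ubiquitin machinery. Their mean levels over all cells lay between -6.71 and -5.38, so they were sparse in the whole data set, and how many cells of cluster 8 held them was not analysed here. Tacc3 (-1.63), a spindle protein, was lower and Bub1, a checkpoint kinase, was undetected. Other mitotic genes did not pass: Ccnb1 (0.22), Cdk1 (0.08) and Top2a (-0.11). The list median of 0.22 became -0.07 over members at or above the median level, so no direction of the list is given. In the S phase list 1 of 27 was higher, Nasp, and 1 lower, Fen1 (-0.72), a flap endonuclease of lagging-strand synthesis, with a median of 0.02 that changed sign between settings. Of the replication-dependent core histone genes 13 of 57 were higher, and the part of cycling cells in their folds was not tested.

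Genes of antigen presentation, the immediate early response and protein folding were lower where they passed the rule. All 4 antigen presentation genes called, of 20, belong to major histocompatibility class II: H2-Aa (-1.81), H2-Eb1 (-1.61), Cd74 (-1.57), the invariant chain, and H2-Ab1 (-0.77). Class I genes did not pass, with B2m at 0.27, H2-D1 at 0.05 and H2-K1 at -0.20 in the authors' deposited table. Cluster 8 had the lowest fold of the 11 tables for each of the 4 class II genes. Of 26 immediate early genes, 4 were lower, all of the AP-1 family: Jund (-0.66), Junb (-0.62), Fos (-0.59) and Jun (-0.56). These genes were at 1.54 to 3.26 in cluster 9, whose immediate early median was 2.37 against -0.19 in cluster 8. The feedback inhibitors Socs3 (-1.04) and Cish (-0.69) and the chaperones Hspb1 (-1.52), Hsph1 (-0.61) and Hspa5 (-0.53) were lower too. Of 28 interferon response genes none with a count was called, Ifi204 was undetected, and the list median was -0.10.

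Energy metabolism genes had mostly small folds. Of 65 nuclear-encoded oxidative phosphorylation genes 63 were above 0, with a median of 0.33, the highest of the 11 clusters, but only 3 passed: Ndufa1 (0.59) of complex I, Uqcrc1 (0.56) of complex III and Atp5b (0.51) of the ATP synthase. With folds taken from the 0.11 median none of the 3 passed (0.47, 0.44 and 0.40), and Atp5b also fell short when centred on all genes (0.49). Mitochondrially encoded genes had a median of -0.06, and 1 of 13 was lower, mt-Nd6 (-0.64). Of 18 glycolysis genes, whose median was -0.06, 4 were lower: the aldolases Aldoc (-1.84) and Aldoa (-0.68), hexokinase Hk2 (-0.82) and the glucose transporter Slc2a3 (-0.54). The autophagy list, to which the reporter of these mice relates, had a median of 0.19 over 28 genes; Atg13 (0.72), of the initiating kinase complex, and Gabarapl2 (0.52), of the LC3 family, were higher, and Atg10 (-1.19), an enzyme of the conjugation system, was lower. The call of Gabarapl2 was lost with either centring of the folds (below 0.5 on all genes, and 0.41 on well-detected genes). Cytoplasmic ribosomal protein genes, 60 in number, had a median of -0.06 and none was called.

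Lineage-priming lists gave few calls, in both directions. In the myeloid list Spi1, the gene for the transcription factor PU.1, was higher at 0.82, while Irf8 (-1.46), Gfi1 (-1.30), Prtn3 (-1.05) and Csf3r (-0.65) were lower in the authors' deposited table, and 4 of 18 were undetected. In the megakaryocyte list 4 of 17 were lower, among them Clec1b (-3.97), a platelet lectin receptor, Selp and Vwf. Of the erythroid list, Aqp1 (1.11), a water channel, and Car2 were higher, Hbb-bt (-0.93), a globin gene, was lower and 6 of 19 were undetected; its median changed sign between settings. Runx3 (0.63), a transcription factor of T cells, was the single lymphoid gene of 18 called. Other genes at the low end of the authors' order included Lmcd1 (-3.60) and Cdk14 (-2.53), a kinase of Wnt signalling. Padi4 (-1.84), which converts arginines of histones to citrulline, Zbtb20 (-1.19), a transcription repressor, and Tmem176a (-0.84) were there too. Clec1b and Lmcd1 were sparse over all cells (mean levels of -4.38 and -4.62), so their folds rest on few counts in cluster 8.

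**Figure D4:**
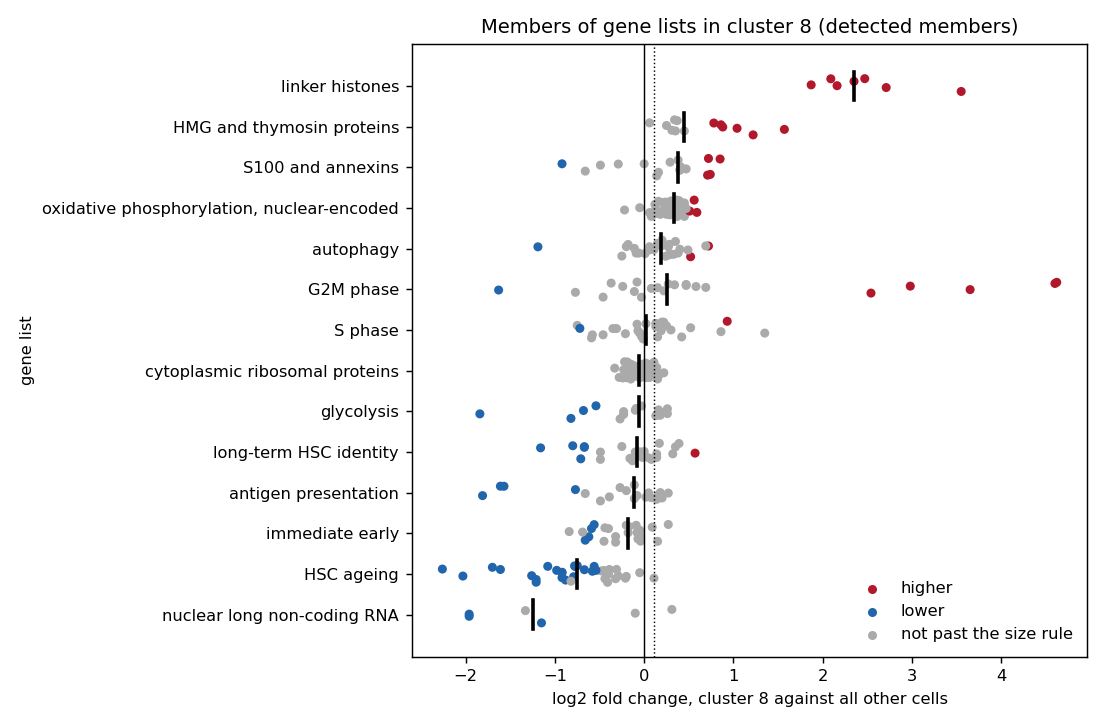
Deposited log2 fold change in cluster 8 (horizontal axis) of the detected members of 14 gene lists (vertical axis), red where higher, blue where lower and grey where not past the size rule, with a black bar at the median of detected members. The solid line marks 0 and the dotted line 0.11, the median of all genes at or above the median level; linker histones (2.35) and ageing genes (-0.75) lie on opposite sides of it.

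In the authors' pathway table for cluster 8, 1608 of 2922 pathways scored higher (55%) and 186 lower (6.37%), so a higher score says little of a single pathway. The highest scores were for Reactome's termination of RNA polymerase II transcription (15.5, log2 fold 0.30), apoptosis (15.2, fold 0.21) and signaling by WNT (15.2, fold 0.18), and the processing of capped intronless messages (14.9, fold 0.34). For all of these, and for oxidative phosphorylation in KEGG (14.2, fold 0.19), cluster 0, with its 4904 cells, had the higher score but the smaller fold, at 0.10, 0.06, 0.05, 0.11 and 0.07 in the same order. The lowest score was for Reactome's set on metal binding by metallothioneins (-15.6, no fold), although Mt1 and Mt2 were detected in cluster 8, so this score does not describe those genes. Arylamine and tamoxifen metabolism in WikiPathways both scored -14.6 with a fold of -2.03, the value of Sult1a1 itself, so they add nothing to that gene. Estrogen metabolism (-11.7, fold -0.84) and sulfur metabolism (-11, fold -0.94) had the lowest folds of the 11 clusters, against -0.46 and -0.39 in cluster 0.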

How the data were processed

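Sorted bone marrow HSCs gave 6 droplet single-cell RNA libraries, 1 mouse each. Per the submitters' processing notes, Scanpy and the mm10 build were used. The 22 tables compare each of 11 clusters with all other cells. The deposited gene tables hold each gene's mean level and fold as log2 values, and a p-value over cells with its adjustment. The deposited pathway tables hold a score, a log2 fold and p-values, per the file headers. The authors' choices of aligner, cell filtering, doublet removal, clustering, test and pathway scoring were not given in the sources used here.

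Cell numbers were read from the deposited p-values of the 19 genes seen in 1 cell, whose Welch statistic is 1 in size. For 7 clusters both sides of the comparison gave a number and for 4 clusters 1 side did. Genes with a deposited log2 fold below -10 were taken as undetected; in cluster 8 no fold lay between -14.01 and -3.97. The reading of cell numbers and depth was tested on simulated data. Pathways were called higher or lower at an adjusted p under 0.05. No p-value is reported, because cells are not replicates and each group was 1 library. The alternatives tried were other fold and p limits, other centrings of the fold, a filter on low levels and other summaries of the lists.

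The genes named were the 5 marker genes, the first 20 higher and last 12 lower detected genes in the authors' order (without gene model names), up to 4 called members of each list with the largest folds, and all called histone and ageing genes. Other list members named with values, and the families in the closing section, were chosen after their values were seen. Some named genes are not reported here. The cluster, the 33 gene lists and the size rule were chosen with earlier results of these data known. Gene positions are from GENCODE, mm10. Promoters came from RefSeq (GRCm38.p6), matched by symbol or synonym: 57 of the 64 replication-dependent or linker histone genes had an entry. Python 3.11.15, pandas 2.3.3, numpy 2.4.6, scipy 1.17.1 and matplotlib 3.10.9 were used.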

Additional observations from a re-analysis of the deposited data

How the results depend on the processing

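The direction of both leading lists held under every alternative run. The histone median of 1.18 stayed between 1.16 and 1.69, and the ageing median of -0.75 between -0.79 and -0.75. Of 33 list medians 27 kept their sign under every alternative and 6 did not: intermediate filament and lamina, actin and tubulin, S phase, G2M phase, cytokine feedback and erythroid priming. Counts of genes depended on the limits. The 404 higher genes became 82 at a log2 fold of 1, 2467 without the filter on adjusted p, 173 at an adjusted p under 0.001 and 252 with folds centred on the median of genes at or above the median level, a centring chosen after seeing the data. The 590 lower detected genes became 337, 1527 and 242 under the first 3 of these and 324 among genes at or above the median level. The 3333 lower genes with undetected ones included also became 324 there, since genes of that level were nearly all detected. The 186 lower pathways became 68 at an adjusted p under 0.001. Of the 121 named genes 63 fell short of a log2 fold of 1 and 26 of an adjusted p under 0.001. The histone genes among those 26 were Hist1h1a, Hist1h2ak, Hist1h2be, Hist1h2bg and Hist1h4j. After centring, 3 named genes fell short on all genes and 8 on genes at or above the median level. With 173 cells, depth limits sparse genes most: 2519 of the 2961 undetected genes lay at mean levels of -7.96 or less on the log2 scale. Leaving out a library was not possible, because the tables pool all 6. No paired analysis was possible because each group was 1 library and the results come from no test.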

Other observations

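Values of some gene families outside the lists are given here; the families were chosen after their values were seen. Small nucleolar RNA host genes had 6 of 17 members higher in the authors' deposited table, which were Snhg10 (1.38), Snhg4 (1.08), Snhg3 (0.92), Snhg9 (0.71), Snhg1 (0.58) and Snhg20 (0.52), and Snhg18 (-0.98) was lower. Of 39 proteasome subunit genes 37 had a deposited fold above 0, with a median of 0.33, and 4 were higher. All 20 hnRNP genes, whose proteins bind nascent RNA, were above 0, with a median of 0.25 and 1 call. The Snrp genes of the spliceosome had a median of 0.34, with 3 of 12 higher. Over all genes 2.37% were higher, and 8876 of 14094 detected genes were above 0. Genes at or above the median level had a median of 0.11.

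Of 13 tubulin genes measured, 5 were lower in the authors' deposited table, adding Tubb2a (-1.13) and Tuba4a (-0.79) to those of the cytoskeleton list, 2 were undetected and 0 were higher. C-type and NK-type lectin genes had 6 of 29 lower and 12 undetected, but 9 of the 17 detected were above 0 and their median was 0.02. Among the lower lectin genes were Klrb1c (-1.94) and Klrb1f (-2.48). Klrb1f was sparse over all cells (mean level of -6.24), so its fold rests on few counts. Over all detected genes 4.19% were lower.

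Apart from names ending in Rik, the undetected genes with the highest mean levels over all cells were Cxcl10 (-4.21), an interferon-induced chemokine, Fabp4 (-4.75), a fatty acid carrier, Mapk13 (-4.79) and Kcnb2 (-4.98). Cxcl10 was undetected in 1 other cluster as well.

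Among genes at or above the median level, those higher in cluster 8 had shorter gene spans, from first to last annotated base, than all such genes. The median was 16.5 kb for higher genes, 22.8 kb for lower genes and 23.3 kb for all. Of the 1693 genes with the longest spans 1.89% were higher and 5.02% lower, against 5.19% and 4.96% of the 1694 with the shortest. Median folds in cluster 8 hardly differed, at 0.08 for the longest and 0.10 for the shortest. The shortest genes were also more abundant, with a median level of -1.21 against -1.79. The part of level in these shares was not tested. At mean levels of -1.28 or more, 28 of the 678 shortest genes were higher and 32 lower, against 12 and 20 of the 678 longest.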
